A study of Mus musculus with 90 samples.

Results

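Transcript levels of 10 Hippo pathway genes, Tead1, Tead2, Tead4, Yap1, Wwtr1, Lats1, Lats2, Amotl2, Nf2 and Sav1, were followed from the mature oocyte to the 8-cell embryo in wild-type (WT) and maternal Plag1 knockout mice. The genes were chosen by name, as pathway components, and all 10 were among the 24422 genes of the deposited count table. Plag1 encodes a zinc finger transcription factor, and the comparison asks whether embryos from mothers without it differ from WT embryos. In all, 90 single oocytes or embryos on a CD-1 background had been sequenced: 16 WT and 16 Plag1 knockout metaphase II (MII) oocytes, 14 WT and 14 matPlag1KO 2-cell (2c) embryos, and 15 WT and 15 matPlag1KO 8-cell (8c) embryos. All came from superovulated females of 1 to 3 months of age. Oocytes were taken from unmated females 21 to 23 h after human chorionic gonadotropin, 2c embryos were labelled as 45 to 47 h and 8c embryos as 71 to 73 h after fertilization, and embryos were cultured from the zygote stage. All females giving embryos were mated with WT males, so matPlag1KO embryos lacked Plag1 from the mother but carried a WT paternal allele, and they are here named as labelled. The labels give no donor female, so embryos of 1 female may stand in a group together, and p-values measure only the spread between these libraries.

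The Hippo pathway is a kinase cascade that holds back the transcriptional coactivators YAP (gene Yap1) and TAZ (Wwtr1). When the LATS kinases (Lats1, Lats2), aided by the scaffold SAV1, phosphorylate YAP and TAZ, these stay in the cytoplasm, and when the cascade is off they enter the nucleus and bind the TEAD transcription factors. NF2 (Merlin) and the angiomotins, including AMOTL2, act upstream and favour LATS activity at the membrane. In the mouse embryo the pathway is best known for the first lineage choice, in which TEAD4 with YAP drives Cdx2 in outer cells and LATS activity keeps YAP out of the nucleus in inner cells. The mRNA levels measured here do not report phosphorylation or location of these proteins.

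Of the 90 libraries, 78 were analysed, and the 12 with a median below 1 CPM (counts relative to the total of their library) were left out: 2 of Plag1 knockout oocytes, 3 of WT and 3 of matPlag1KO 2c embryos, and 4 of matPlag1KO 8c embryos. The libraries analysed held from 92475 to 2502421 counts on genes, with medians from 148473 in WT 2c to 649899 in Plag1 knockout oocytes, and from 6645 to 15428 counts on the 92 spike-in RNAs added in equal amount to each. One WT oocyte library of pool A, well A5, held the highest total, and values without it are given beside the results it moved by over 1.5 times or whose call it ended. Counts of Plag1 were present in 16 of 16 WT oocytes (2.32, 24.3 and 143 CPM as lowest, median and highest) and in 3 of 14 knockout oocytes (highest 3.28 CPM). At 2c the order was the opposite, with a count in 1 of 11 WT and in 9 of 11 matPlag1KO embryos (median 35.7 CPM), and at 8c in 5 of 15 and 4 of 11. The targeted transcript thus followed the genotype label in oocytes, and at 2c it was higher in the libraries labelled matPlag1KO. Stage labels were checked with marker genes. The sum of 5 oocyte markers had medians of 5605, 3287 and 59.9 CPM in WT at MII, 2c and 8c. In the knockout series the medians were 13787, 4673 and 101 CPM, higher than in WT at each stage, a difference that was not tested. Counts were present for 3 of 5 2c markers (median 190 CPM in WT and 401 CPM in matPlag1KO 2c embryos, with Tcstv1 and Tcstv3 at 0). The group medians of 8 cumulus cell markers stayed between 0 and 4.06 CPM, the highest library being at 26.8 CPM. The summed 8c markers had a median of 1159 CPM in WT and 425 CPM in matPlag1KO 8c embryos, against 604 CPM in WT and 464 CPM in knockout oocytes. The median of this list was thus highest at 8c in WT, and in the knockout series it was below that of oocytes at 8c.

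The libraries counted 5′ ends of transcripts, so the sequence around each start site is shown for the 4 members that changed between stages and held the core motif bound by TEAD proteins, GGAATG, read on either strand. RefSeq (GRCm38.p6) gave windows of 300 bases, from 250 before to 50 after the annotated start, for 8 of the 10 members and 11 starts. Tead1 and Tead4 were not among them. The windows, 5′ to 3′ on the strand of the gene with GGAATG or its reverse complement CATTCC in capitals, were chr9:102717554-102717853 (+) for Amotl2, chr14:57746074-57746373 (−) for Lats2, chr3:57575861-57576160 (−) for Wwtr1 and chr9:8004547-8004846 (−) for Yap1:
Amotl2: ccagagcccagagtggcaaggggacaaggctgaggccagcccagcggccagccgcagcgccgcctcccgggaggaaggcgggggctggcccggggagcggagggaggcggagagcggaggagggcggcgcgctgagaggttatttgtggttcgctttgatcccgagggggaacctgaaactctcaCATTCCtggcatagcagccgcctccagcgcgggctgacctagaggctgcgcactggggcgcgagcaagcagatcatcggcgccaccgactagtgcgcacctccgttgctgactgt
Lats2: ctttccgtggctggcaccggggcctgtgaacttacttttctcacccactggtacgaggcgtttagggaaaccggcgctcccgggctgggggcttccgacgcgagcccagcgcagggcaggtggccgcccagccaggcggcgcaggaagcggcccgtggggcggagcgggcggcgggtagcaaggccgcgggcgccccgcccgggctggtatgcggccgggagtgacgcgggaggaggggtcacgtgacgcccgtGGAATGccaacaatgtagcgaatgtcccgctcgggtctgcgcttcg
Wwtr1: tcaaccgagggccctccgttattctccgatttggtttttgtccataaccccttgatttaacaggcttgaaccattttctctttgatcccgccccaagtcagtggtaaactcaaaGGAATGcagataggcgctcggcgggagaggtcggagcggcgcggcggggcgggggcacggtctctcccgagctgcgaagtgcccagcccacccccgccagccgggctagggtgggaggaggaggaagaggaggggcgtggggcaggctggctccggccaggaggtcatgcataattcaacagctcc
Yap1: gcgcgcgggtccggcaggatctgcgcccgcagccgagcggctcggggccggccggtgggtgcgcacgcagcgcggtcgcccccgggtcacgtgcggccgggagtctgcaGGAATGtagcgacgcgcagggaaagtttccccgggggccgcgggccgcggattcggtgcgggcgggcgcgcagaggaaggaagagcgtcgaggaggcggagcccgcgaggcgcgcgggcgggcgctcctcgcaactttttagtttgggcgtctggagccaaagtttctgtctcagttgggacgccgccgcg
The motif lay 65 bases before the start of Amotl2, 136 before that of Wwtr1, 141 before that of Yap1 and 5 after that of Lats2. Sav1 also held it 106 bases before its start, and it was not found in the windows of Tead2, Lats1 and Nf2 or at the second Lats2 start. Among all 32851 windows 14.7% held it, a frequency at which a match is a description of the sequence and not a binding site. Of 2 forms of the PLAG1 core motif, GGGGCNNNNNNNGGG was in 8.46% of all windows and, among members, in that of Amotl2, while GAGGCNNNNNNNGGG was in 4.62% and in no member. In the mm9 build used for the counts, 9 members overlapped no other gene. Sav1, at chr12:71065999-71087989 (−), overlapped Gm3086 on the opposite strand, and whether the counting used strand is not given in the sources used here.

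**Figure D1:**
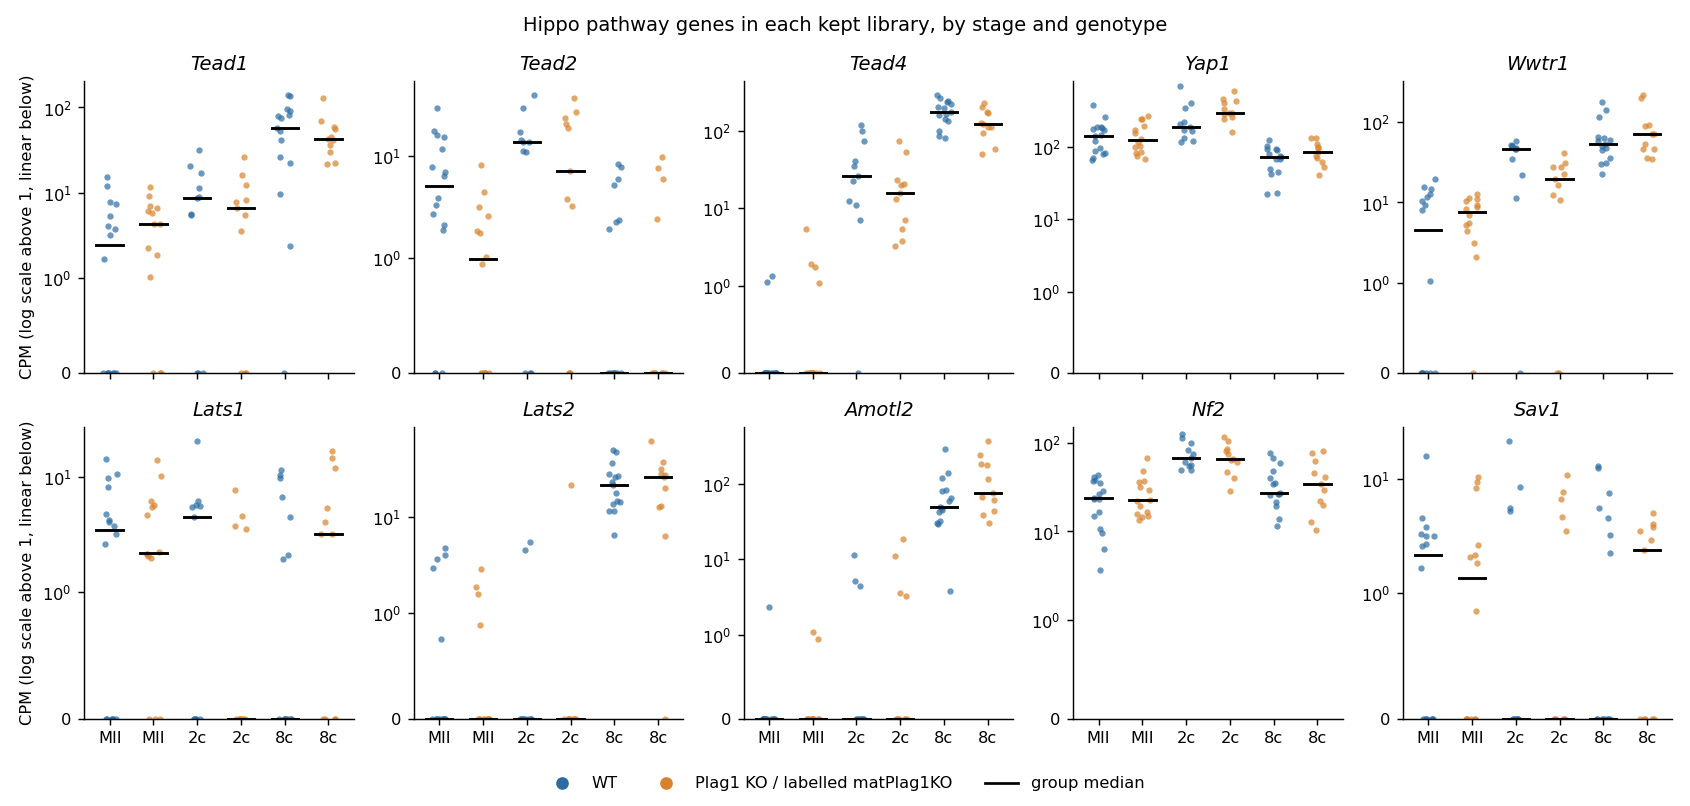
CPM of each of the 10 genes (log scale above 1, linear below) in each of the 78 libraries, by stage and genotype (WT in blue, Plag1 knockout or matPlag1KO in orange), with a bar at the group median. Tead4, Lats2 and Amotl2 have medians of 0 in oocytes and of 21.7 CPM or above at 8c, with 1 matPlag1KO 8c library at 0 for Lats2, Yap1 is at 22.3 CPM or above in every library, and blue and orange points overlap for every gene at every stage.

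Levels are given as CPM on gene counts with TMM scaling, which compares the share of a gene in each library. Changes between stages were tested on counts scaled to the spike-ins, which follow the amount per oocyte or embryo, with edgeR's quasi-likelihood test and Benjamini-Hochberg adjustment over 16511 genes, and an adjusted p below 0.05 counted as a change. On that scale the median gene moved by −1.46 (log2) from MII to 2c in WT and by −1.42 in the knockout series, by 0.53 and 0.30 from 2c to 8c, and by −0.67 and −0.95 from MII to 8c. A whole embryo is one library, so a change in the number of cells expressing a gene and a change per cell cannot be told apart, and an 8c library holds 8 cells.

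From MII to 2c, 3 of the 10 members changed in WT, with Tead4 rising and Yap1 and Lats1 falling, where 14.1% of all genes tested rose and 51.3% fell. In the knockout series 2 changed, Tead4 rising and Lats1 falling, against 13.5% and 50.3% of all genes. From 2c to 8c, 5 members rose in WT (Tead1, Tead4, Wwtr1, Lats2, Amotl2) and 1 fell (Tead2), against 31.9% and 16.2% of all genes. In matPlag1KO embryos the same 5 and Lats1 rose and Yap1 fell, against 29.1% and 19.5%. Over the whole interval from MII to 8c, 5 members rose in each genotype, Tead1, Tead4, Wwtr1, Lats2 and Amotl2, against 27.1% of all genes in WT and 24.1% in the knockout series. In WT, 3 fell (Tead2, Yap1, Lats1) against 43.6% of all genes, and in the knockout series 1 fell (Yap1) against 45.2%. The median member changed by −0.62 (log2) from MII to 2c and by 1.11 from 2c to 8c in WT.

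**Figure D2:**
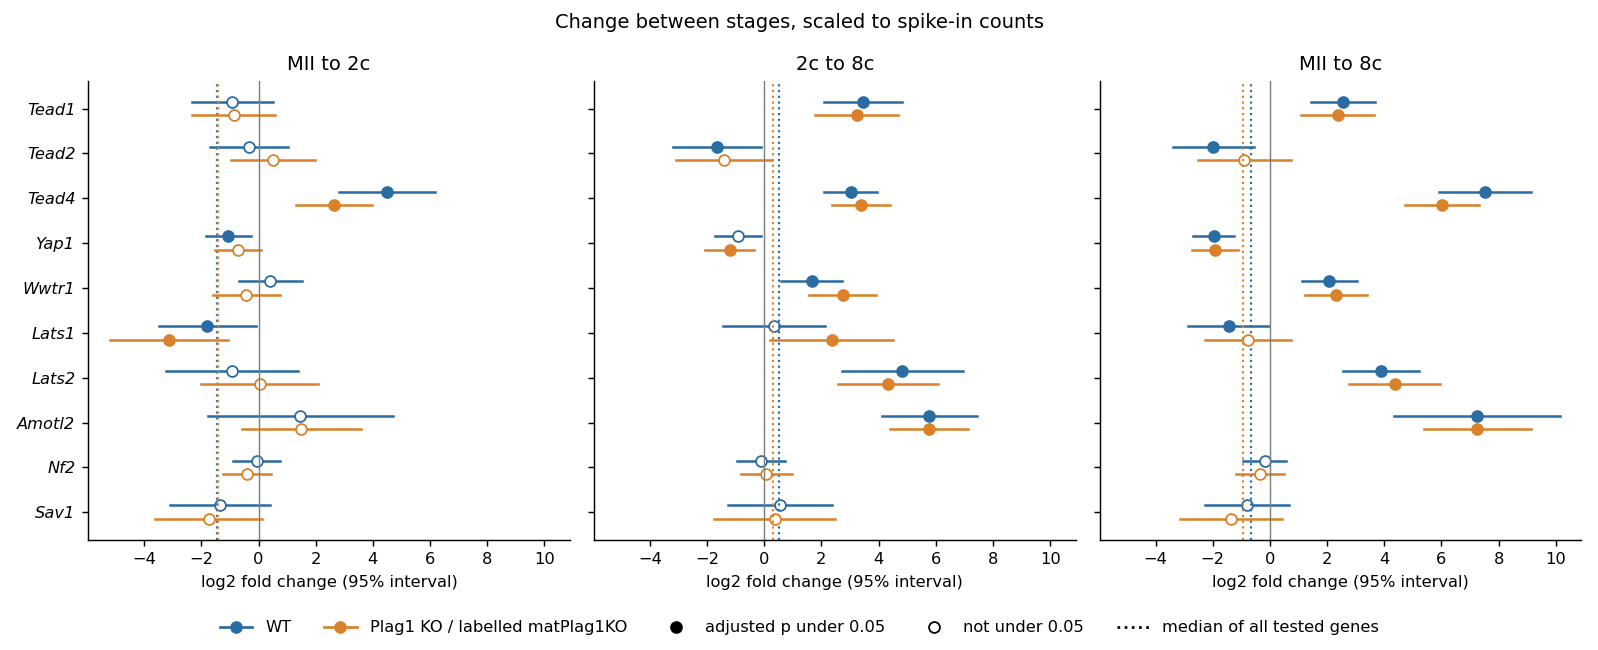
Log2 fold change of each gene between stages, scaled to spike-in counts, with 95% intervals, in WT (blue) and in Plag1 knockout oocytes or matPlag1KO embryos (orange). Filled points passed an adjusted p of 0.05, and dotted lines mark the median of all 16511 genes. Amotl2 and Tead4 lie farthest to the right from MII to 8c, at 7.23 and 7.51 in WT, and Nf2 stays near 0 in every panel.

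Tead4, the TEAD factor needed for the trophectoderm, rose at each step in both genotypes. Its CPM as lowest, median and highest were 0, 0 and 1.35 in WT oocytes, 0, 26.0 and 118 in WT 2c embryos, and 81.0, 172 and 288 in WT 8c embryos. In the knockout series they were 0, 0 and 5.51 at MII, 3.25, 15.9 and 73.9 at 2c, and 50.7, 122 and 225 at 8c. Counts were present in 2 of 16 WT and 4 of 14 knockout oocytes, and in 21 of the 22 embryos at 2c. The log2 fold change from MII to 2c was 4.49 (SE 0.84, adjusted p = 6.64e-10) in WT and 2.64 (SE 0.67, adjusted p = 7.28e-05) in the knockout series. From 2c to 8c it was 3.02 (SE 0.46, adjusted p = 3.43e-07) and 3.38 (SE 0.51, adjusted p = 1.17e-07). WT 8c libraries lay above all WT 2c libraries on the spike-in scale, and in both genotypes 8c libraries lay above all oocytes. Without the WT oocyte library of well A5, the MII to 2c change in WT was 5.43 and the MII to 8c change 8.45 in place of 7.51.

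Tead1, a TEAD factor expressed in many tissues, rose from 2c to 8c. WT oocytes had 0, 2.42 and 15.1 CPM, WT 2c embryos 0, 8.63 and 31.9, and WT 8c embryos 0, 57.0 and 140. The knockout series had 0, 4.26 and 11.7, then 0, 6.69 and 26.3, then 21.6, 42.9 and 130. Oocytes and 2c embryos overlapped widely, and 25 of the 26 8c embryos had a count. The 2c to 8c change was 3.46 (SE 0.69, adjusted p = 2.81e-05) in WT and 3.24 (SE 0.73, adjusted p = 0.000127) in matPlag1KO embryos. The changes from MII to 2c, −0.91 (SE 0.71) and −0.87 (SE 0.73), did not pass the test. From MII to 8c it was 2.55 (SE 0.57) in WT, or 3.60 without the A5 oocyte library, and 2.37 (SE 0.64) in the knockout series.

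Tead2, a TEAD factor expressed early in the embryo, fell by 8c in WT, where its median was 0 CPM. WT libraries had 0, 5.10 and 29.3 CPM at MII, 0, 13.4 and 38.9 at 2c and 0, 0 and 8.31 at 8c. Plag1 knockout oocytes had 0, 0.994 and 8.14 CPM, matPlag1KO 2c embryos 0, 7.06 and 36.5, and 8c embryos 0, 0 and 9.59. At 8c it had a count in 7 of 15 WT and 4 of 11 matPlag1KO embryos. It fell in WT from 2c to 8c (−1.64, SE 0.78, adjusted p = 0.0456), a call that was lost under 3 of 8 other settings (adjusted p from 0.00109 to 0.294) and when any of 17 of the 78 libraries was left out. It also fell from MII to 8c (−1.97, SE 0.71, adjusted p = 0.00549). In the knockout series these changes were −1.40 (SE 0.85) and −0.90 (SE 0.82) and did not pass the test. In WT the 3 TEAD genes thus had 3 courses, a rise at each step for Tead4, a rise at 8c for Tead1 and a fall by 8c for Tead2.

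Yap1, the coactivator that TEAD factors recruit, had a count in every library. WT oocytes had 65.9, 141 and 378 CPM, WT 2c embryos 118, 187 and 678, and WT 8c embryos 22.3, 73.4 and 122. The knockout series had 68.2, 123 and 261, then 162, 290 and 595, then 40.2, 85.5 and 132. The CPM medians were highest at 2c and lowest at 8c in both genotypes. In CPM, matPlag1KO 2c and 8c embryos did not overlap, while the other neighbouring stages did, and per spike-in count all neighbouring stages overlapped. Per spike-in count, Yap1 fell from MII to 8c by 1.97 on the log2 scale in WT (SE 0.36, adjusted p = 3.27e-06) and by 1.92 in the knockout series (SE 0.41, adjusted p = 5.89e-05). From MII to 2c it fell by 1.06 in WT (SE 0.39, adjusted p = 0.0183), less than the median gene. That change was −0.52 with an adjusted p of 0.207 without the A5 oocyte library. With TMM scaling, which compares the share of a gene in each library, the same change was a rise of 0.72. From 2c to 8c it was −0.91 in WT (SE 0.40, adjusted p = 0.0521) and −1.21 in matPlag1KO embryos (SE 0.43, adjusted p = 0.0169). The WT fall passed under 5 of 8 other settings (adjusted p from 3.19e-08 to 0.173). It also passed in 15 of 78 fits that left out 1 library. The matPlag1KO call was lost under 2 of 8 other settings (adjusted p from 7.11e-08 to 0.119).

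Wwtr1, which encodes the YAP paralogue TAZ, rose from 2c to 8c per spike-in count. WT libraries had 0, 4.57 and 19.7 CPM at MII, 0, 46.0 and 58.3 at 2c, and 22.6, 53.3 and 176 at 8c. Knockout oocytes had 0, 7.64 and 12.7 CPM, matPlag1KO 2c embryos 0, 19.5 and 41.5, and matPlag1KO 8c embryos 34.5, 70.5 and 216. Each 8c embryo had counts of it, and in matPlag1KO embryos 8c and 2c did not overlap on the spike-in scale. The 2c to 8c change was 1.67 (SE 0.54, adjusted p = 0.00965) in WT and 2.74 (SE 0.60, adjusted p = 0.000117) in matPlag1KO embryos. The WT call was lost under 2 of 8 other settings (adjusted p from 0.00219 to 0.192), among them TMM scaling, with a change of 0.79. From MII to 8c it was 2.08 (SE 0.49, adjusted p = 0.000128) and 2.31 (SE 0.55, adjusted p = 0.000137). From MII to 2c it was 0.42 (SE 0.55) and −0.43 (SE 0.59), neither past the test. The WT change passed as a rise under 2 of 8 other settings. Over these settings it ran from −0.38 to 2.33 (adjusted p from 4.72e-06 to 0.716). As a share of the library, the WT median moved most between MII and 2c, from 4.57 to 46.0 CPM. Yap1 and Wwtr1, coactivators of the same TEAD factors, therefore moved in opposite directions between MII and 8c.

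The 2 LATS kinases, which phosphorylate YAP and TAZ, differed in course. Lats2 had 8 counts in all in WT oocytes (in 5 of 16), 5 in knockout oocytes (in 4 of 14), 2 in WT 2c embryos and 4, all in 1 library, in matPlag1KO 2c embryos. At 8c it had 6.44, 21.7 and 50.4 CPM in WT, with a count in 15 of 15 embryos, and 0, 26.4 and 62.9 CPM in matPlag1KO, with a count in 10 of 11. WT 8c and 2c embryos did not overlap. The 155 counts at 8c against 2 at 2c in WT gave a ratio per spike-in count of 46.9 with a 95% counting interval from 12.8 to 390.5, which covers counting error only. The fitted change was 4.83 (SE 1.07, adjusted p = 1.05e-07) in WT and 4.32 (SE 0.88, adjusted p = 7.32e-07) in matPlag1KO embryos, or 6.34 without the 2c library of pool B, well D4, that held its 4 counts.

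Lats1 was low at each stage, with medians of 3.48, 4.48 and 0 CPM in WT at MII, 2c and 8c and a highest value of 20.8 CPM. In the knockout series the medians were 2.18, 0 and 3.20 CPM and the highest 17.2. All stages overlapped, and 4 of 11 matPlag1KO 2c embryos had a count, of 4 counts in all. It fell from MII to 2c in WT (−1.79, SE 0.85, adjusted p = 0.041) and in the knockout series (−3.13, SE 1.04, adjusted p = 0.0014), where it was −2.51 without the oocyte library of pool B well A5. The WT change was close to that of the median gene. It was lost under 4 of 8 other settings (adjusted p from 0.0221 to 1) and without any of 8 libraries, the oocytes of pool A wells A3, A4 and A5 and the 2c embryos of pool A wells C2 and C3 and pool B wells C2, C4 and C5, with the lowest size, −1.27 (adjusted p = 0.144), without the oocyte of well A5. It rose from 2c to 8c in matPlag1KO embryos (2.35, SE 1.09, adjusted p = 0.0258), a call lost without either of 2 8c libraries (pool A well F5 or pool B well E5), and not in WT (0.34, SE 0.90). The fall from MII to 8c in WT (−1.45, SE 0.72, adjusted p = 0.0499) was lost when any of 48 of the 78 libraries was left out.

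Sav1, the scaffold that joins the upstream MST kinases to LATS, had 113 counts over all 78 libraries. Its medians were 2.13, 0 and 0 CPM in WT and 1.35, 0 and 2.40 CPM in the knockout series at MII, 2c and 8c, with a highest value of 21.8 CPM in a WT 2c embryo. No stage change passed the test, the largest being −1.74 (SE 0.94, adjusted p = 0.0611) from MII to 2c in the knockout series. Its narrowest 95% interval, from MII to 8c in WT, ran from −2.27 to 0.67.

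Amotl2, an angiomotin that holds YAP at junctions and activates LATS, had the steepest rise of the members from 2c to 8c. WT oocytes held 1 count in all, WT 2c embryos 4 (in 3 of 11) and WT 8c embryos 478, with 3.82, 48.7 and 288 CPM as lowest, median and highest. Knockout oocytes held 3 counts, matPlag1KO 2c embryos 9 (in 4 of 11) and 8c embryos 546, with 30.2, 75.1 and 370 CPM. Each 8c embryo was above every oocyte in both genotypes, and in matPlag1KO embryos above every 2c embryo. The change from 2c to 8c was 5.77 (SE 0.84, adjusted p = 1.45e-11) in WT and 5.75 (SE 0.68, adjusted p = 3.93e-12) in matPlag1KO embryos, 6.38 without the WT 2c library of pool A well D5 and 6.60 without the matPlag1KO 2c library of pool B well D7. Against oocytes the ratio of counts at 8c per spike-in count was 446.7 (95% counting interval 79.8 to 17680) in WT and 243.3 (82.8 to 1184) in the knockout series. The fitted change over that interval was 7.23 in WT, or 7.82 without the WT oocyte library of pool A well A2, and 7.25 in the knockout series, or 8.00 without the knockout oocyte library of pool B well A5. From MII to 2c the ratio of counts per spike-in count was 6.18 (95% counting interval 0.612 to 304.4) in WT. In the knockout series this ratio was 3.93 (0.980 to 22.6), and both intervals include no change.

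Nf2, which encodes Merlin, the upstream activator of the cascade at the membrane, had a count in every library. It had 3.66, 23.7 and 43.6 CPM in WT oocytes, 49.2, 67.5 and 126 in WT 2c embryos and 11.6, 27.2 and 76.4 in WT 8c embryos. The knockout series had 13.6, 22.4 and 68.0, then 28.5, 65.5 and 116, then 10.4, 34.5 and 80.5 CPM. As a share of the library it was highest at 2c, where WT libraries lay above every WT oocyte in CPM, while per spike-in count the stages overlapped. On that scale it changed from MII to 2c by −0.06 (95% interval −0.88 to 0.76) in WT and −0.42 (−1.26 to 0.42) in the knockout series, and from 2c to 8c by −0.12 (−0.95 to 0.71) and 0.08 (−0.82 to 0.97). None of these passed the test. Scaled with TMM, Nf2 rose from MII to 2c by 1.65 in WT and 1.33 in the knockout series. Its direction thus rests on whether it is read as a share of transcripts or as an amount captured per oocyte or embryo.

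None of the 10 members differed between genotypes at MII, 2c or 8c by edgeR's quasi-likelihood test with TMM scaling, where 0.781%, 4.92% and 1.74% of all genes did, and DESeq2 called 0 as well. At an unadjusted p below 0.05 there was 1 member at MII, 2 at 2c and 1 at 8c, against 1690, 3380 and 2363 of the 16511 genes. At MII this was Tead2, with 13 of 16 WT and 8 of 14 knockout oocytes having a count, a log2 fold change of −1.80 (SE 0.63, 95% interval −3.05 to −0.54) and an adjusted p of 0.144. At 2c they were Tead4 (−0.96, SE 0.45, interval −1.84 to −0.07, adjusted p = 0.192) and Wwtr1 (−0.98, SE 0.50, interval −1.97 to 0.004, adjusted p = 0.237), whose medians were 26.0 against 15.9 CPM and 46.0 against 19.5 CPM. The median gene differed by 0.12 at 2c. At 8c it was Amotl2 (0.77, SE 0.38, interval 0.02 to 1.53, adjusted p = 0.340), with medians of 48.7 CPM in WT and 75.1 CPM in matPlag1KO embryos. WT and knockout libraries overlapped for all 10 members at all 3 stages, a description only, since the share of all genes that overlapped is not given here.

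**Figure D3:**
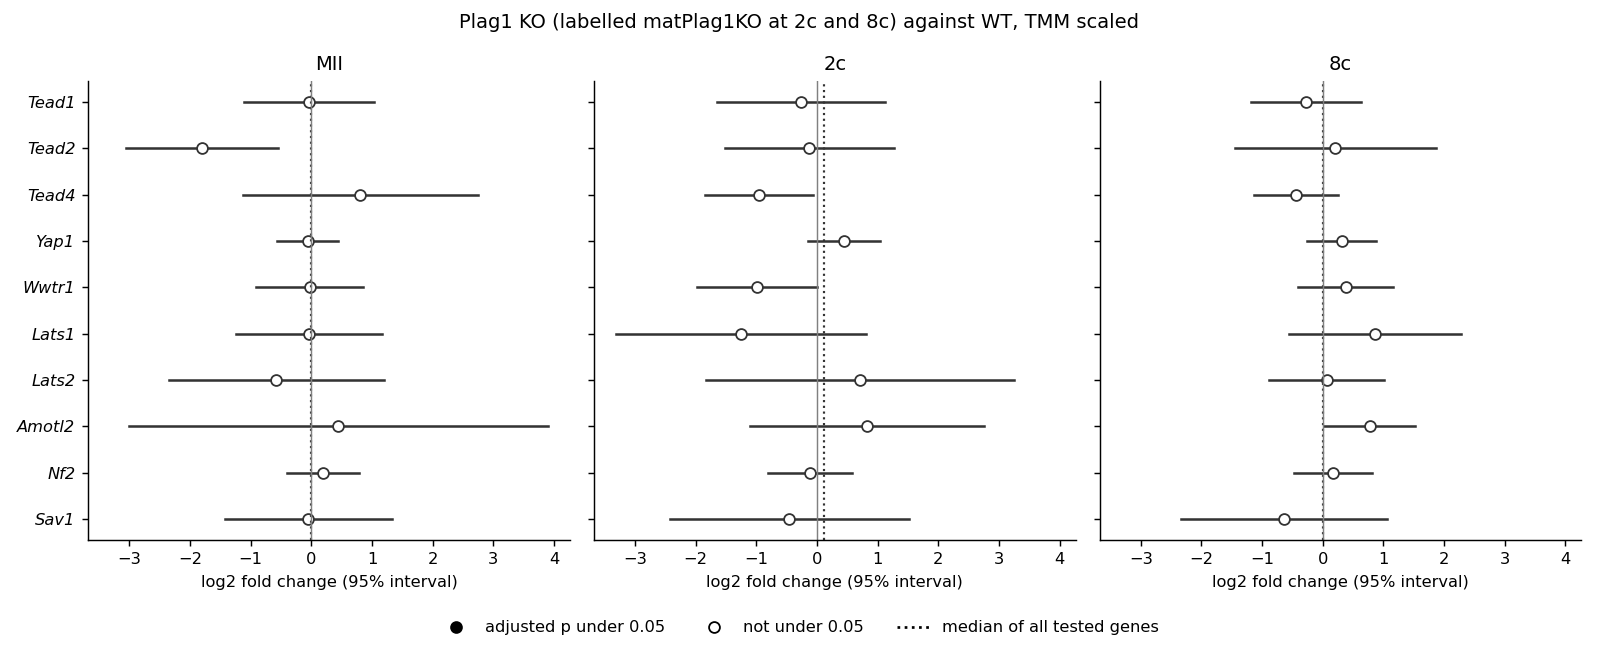
Log2 fold change of Plag1 knockout oocytes (MII) or matPlag1KO embryos (2c, 8c) against WT, with TMM scaling and 95% intervals. All points are open, since none passed an adjusted p of 0.05, and the intervals are narrowest for Yap1 and Nf2 and widest for Amotl2 at MII.

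The intervals show what sizes the data leave possible. For Yap1, the best measured member, the difference was −0.06 (95% interval −0.57 to 0.45) at MII, 0.45 (−0.15 to 1.04) at 2c and 0.31 (−0.26 to 0.88) at 8c. For Nf2 it was 0.20 (−0.40 to 0.79), −0.12 (−0.81 to 0.57) and 0.17 (−0.48 to 0.81). For Tead1 it was −0.04 (−1.12 to 1.04), −0.27 (−1.65 to 1.11) and −0.27 (−1.18 to 0.63), and for Lats2 at 8c 0.06 (−0.88 to 1.01). Differences of over 2-fold lay outside the interval at all 3 stages for Nf2, and at MII and 8c for Yap1. Members of low count were left with wide intervals, such as −1.45 to 1.86 for Tead2 and −2.33 to 1.05 for Sav1 at 8c. The summed CPM of all 10 members had medians of 192, 352 and 524 in WT and 174, 422 and 483 in the knockout series at MII, 2c and 8c.

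Whether the genotype difference itself changed between stages was tested with interaction terms, and 0 of the 10 members passed for 2c against MII, where 3.31% of all genes did, or for 2c against 8c, where 2.30% did. At an unadjusted p below 0.05 there was 1 member in each, against 2923 and 2958 genes. For Tead4 the difference at 2c less that at MII was −1.76 (SE 1.07, adjusted p = 0.246). For Wwtr1 the difference at 2c less that at 8c was −1.37 (SE 0.64, adjusted p = 0.223), from −0.98 at 2c and 0.38 at 8c. The libraries were made in 2 pools, A and B, each holding all stages and genotypes. Within pools, the mean of Tead4 at 2c was 48.3 CPM in 4 WT and 25.4 CPM in 5 matPlag1KO embryos of pool A, and 35.7 in 7 and 18.9 in 6 of pool B. Mean Wwtr1 at 2c was 39.8 and 12.7 CPM in pool A and 36.8 and 24.2 CPM in pool B. Mean Amotl2 at 8c was 58.6 and 125 CPM in pool A and 88.3 and 128 CPM in pool B, and mean Tead2 at MII 5.46 and 0.799 CPM in pool A and 10.1 and 2.61 CPM in pool B. These 4 differences had the same direction in both pools. They were chosen by their unadjusted p over the 2 pools together, so this is no separate support for them. The 8c marker sum was lower in matPlag1KO embryos at 8c while the median of Amotl2 was higher, and its part in the Amotl2 value was not tested.

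Of 48 further Hippo pathway genes in the table, 45 passed the filter and Vgll3, Dchs1 and Ankrd1 did not. From MII to 2c in WT 5 rose and 28 fell, where 14.1% of all genes rose and 51.3% fell, with a median of −1.82 against −1.46 for all genes, and from 2c to 8c 23 rose and 3 fell, against 31.9% and 16.2% of all genes, with a median of 1.31 against 0.53. In the knockout series 3 rose and 27 fell (13.5% and 50.3% of all genes), then 21 rose and 5 fell (29.1% and 19.5%). By role, in WT from MII to 2c, 4 of 4 other TEAD genes and cofactors fell, 10 of 11 upstream activators and 6 of 6 genes of YAP turnover and retention. Of 15 inhibitors of the kinases 4 rose and 5 fell, and of 4 other genes of the kinase cassette 1 rose and 2 fell. Among 5 target genes 0 rose and 1 fell. The genes with the largest change of each role were Amotl1, a further angiomotin (−4.95, or −4.12 without the A5 oocyte library), Gata3, a trophectoderm transcription factor (−4.39), Vgll1, a TEAD cofactor (−4.16), Btrc, the ligase subunit that directs YAP to degradation (−3.32, or −2.70 without the WT oocyte library of pool A well A4), Stk3, an MST kinase (−3.20), and Sike1, a component of the STRIPAK complex (4.46). Sike1 had 0 counts in 16 WT oocytes and 27 in WT 2c embryos, which, with the oocyte total set to a floor of 3 counts, was at least 13.9-fold higher. Amotl1 and Vgll1 were left with 2 counts each in WT 2c embryos, giving ratios of 0.0180 (95% counting interval 0.00216 to 0.0659) and 0.0322 (0.00384 to 0.120).

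From 2c to 8c in WT, 4 of 5 target genes rose, 5 of 6 genes of YAP turnover and retention, 5 of 11 upstream activators, 2 of 4 other genes of the kinase cassette, 1 of 4 TEAD genes and cofactors, and 6 of 15 inhibitors of the kinases, of which 3 fell. The largest change per role was in Cdx2, the trophectoderm transcription factor (6.19, or 7.004 without the WT 2c library of pool A well C3), Amot, the founding angiomotin (4.34, or 5.40 without the WT 2c library of pool B well C2), Vgll4, which competes with YAP for TEAD (4.14), Btrc (3.32), Stk4, the other MST kinase (2.24), and Strn, a STRIPAK scaffold (−3.38). Cdx2 had 0 counts in WT oocytes, 1 in WT 2c embryos and 287 in WT 8c embryos, a ratio from 2c to 8c of 173.6 (95% counting interval 30.9 to 6880). Amot and Amotl2 rose together at this step in WT. Amotl1 had 2 counts in 2c and 32 in 8c embryos, a ratio of 9.68 (95% counting interval 2.47 to 83.3).

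Between genotypes, 0 of the 45 further genes passed at MII and at 2c and 1 passed at 8c, where 0.781%, 4.92% and 1.74% of all genes did. At an unadjusted p below 0.05 there were 4, 6 and 7, against 1690, 3380 and 2363 of the 16511 genes. The one that passed was Cdx2, a target of TEAD4 and YAP, with 2.38, 19.8 and 186 CPM in WT 8c embryos and 0, 3.25 and 66.7 CPM in matPlag1KO 8c embryos, and a count in 15 of 15 and 7 of 11. The groups overlapped, and the log2 fold change was −1.999 with an adjusted p of 0.0471. The call held under 2 of 10 other settings, where the change was between −3.34 and −1.11, and when 11 of the 26 8c libraries were left out in turn. Without the WT library of pool B well F1 it was −1.61 (adjusted p = 0.141), and without the matPlag1KO library of pool A well F5 −3.37 (adjusted p = 0.000747). Tead4, in the same libraries, differed by −0.44 (SE 0.35, adjusted p = 0.601) and Yap1 by 0.31 (SE 0.29, adjusted p = 0.688). The 8c markers were lower in the same matPlag1KO embryos, and their part in the Cdx2 value was not tested.

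Across the 78 libraries, members were compared by Pearson's r of log2(CPM+1), as a description, since libraries of a group share their stage. Of the 45 pairs, 11 had r above 0.5 and 4 below −0.3. The highest was Lats2 with Amotl2 (r = 0.842), followed by Tead4 with Wwtr1 (0.754) and Tead4 with Amotl2 (0.743). Once each group was centred these were 0.291, 0.268 and −0.332, so the likeness was between groups more than between single embryos. Tead2 and Yap1 (r = 0.529) kept 0.407 after centring, the highest of all pairs. Yap1 ran against Lats2 (−0.563) and Amotl2 (−0.549).

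Among 10840 genes with a mean of at least 10 CPM in some group, the genes most like Amotl2 were Nanog (r = 0.924), a pluripotency factor, D630045M09Rik (0.921) and Slc6a8 (0.913), a creatine transporter. Those most like Tead4 were Rps3 (0.929), a ribosomal protein, Usmg5 (0.929) and Cd63 (0.928), and those most like Lats2 were Smpdl3a (0.877), Cish (0.866) and Slc22a13 (0.866). Tead1 was most like Tmub2 (0.754), Adam15 (0.753) and Ube2v1 (0.750), and Wwtr1 most like Yars (0.795), Polr2k (0.792) and Clpp (0.792). Yap1 was most like Ccdc6 (0.767) and Atxn1l (0.743), Nf2 most like Trib3 (0.677), Ercc4 (0.674) and Slc25a28 (0.673), and Tead2 most like Yap1, Rab33b (0.518) and 4833420G17Rik (0.503). Lats1 and Sav1 did not reach a mean of 10 CPM in any group and were not compared.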

How the data were processed

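The authors sequenced 5′ ends of transcripts with molecular identifiers in 2 pools, aligned them with TopHat and deposited counts of genes and of 92 spike-in RNAs on mm9 (HOMER is named in the submitters' processing notes; versions are not given in the sources used here). The counts were used as deposited, on whole tables. Libraries with a median CPM below 1 were left out, genes reaching 1 CPM in 5 or more libraries were tested, and all 6 groups were fitted together with edgeR 4.0.16 (R 4.3.3) by its quasi-likelihood test with Benjamini-Hochberg adjustment, using TMM factors between genotypes and spike-in totals between stages. SE and 95% intervals are Wald intervals of the same model, and they can differ from its test near the threshold. Counting intervals are exact and cover counting error only. The test was checked on simulated counts with changes set only in genes averaging at least 10 CPM, so this check does not cover members of lower count. Members and gene lists were chosen with earlier results of these data known. All members were named; of the further pathway genes, those called between genotypes and the largest change of each role in WT with a mean of at least 10 CPM; and for each member the 3 genes of highest r, of which 1 is not reported here. Likeness was computed on log2(CPM+1). Alternatives were other filters, scalings, DESeq2 1.42.0, a likelihood ratio test, pool as a term, each pool alone, fits of 2 groups, a replicate block on oocyte wells and, added after seeing the data, each library left out at 8c, between stages and in the interaction. Figures were drawn with matplotlib 3.10.9 in Python 3.11.15.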

Additional observations from a re-analysis of the deposited data

Results flagged for a closer look

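Of the 10 members and 45 further pathway genes, 1 showed a genotype difference that differed between 2c and 8c by the interaction test. Of all 16511 genes tested, 380 (2.30%) did, so the count is near the share over all genes. For Ywhae, which encodes a 14-3-3 protein that binds phosphorylated YAP, the difference at 2c less that at 8c was 1.32 on the log2 scale (SE 0.39, 95% interval 0.55 to 2.09, adjusted p = 0.0483 by edgeR's quasi-likelihood test). Its median CPM was 304 in WT and 434 in matPlag1KO 2c embryos, and 815 and 648 at 8c. The call held under 2 of 6 other settings (adjusted p from 0.0356 to 0.649) and in 15 of the 48 fits that left out 1 library, in which the difference was between 1.11 and 1.46. The lowest value came without the matPlag1KO 2c library of pool B well D6.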

How the results depend on the processing

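The count of members that differed between genotypes was 0 at each stage and in both interactions under every alternative run: 11 at MII, 10 each at 2c and 8c and 6 for each interaction. It was also 0 on leaving out 1 library at 2c (22 fits), at 8c (26) or in the 2c against 8c interaction (48). In pool A alone, 0 of 15073 genes were called at 2c, 0 for 2c against 8c and 6 at 8c. A count of 0 members there is therefore uninformative. In pool B alone these were 502, 170 and 46 of 15161 genes. Oocytes in the same wells of their plates gave 14 pairs of opposite genotype whose deviations correlated from −0.0369 to 0.720 (median 0.308). The main fit did not take the wells as pairs. A replicate block on them also called 0 members at MII, but 792 of 12978 genes, against 129 of 16511 in the main fit. The background at MII thus depends on whether wells are paired. From MII to 2c the scaling mattered most: with TMM 5 members changed in WT in place of 3, and 6 in the knockout series in place of 2. Of all 16511 genes, 8354 in WT and 7991 in the knockout series changed with TMM, in place of 10800 and 10537. With all libraries of at least 1000 gene counts, 4 members changed in the knockout series, where 10921 of 16578 genes did. Leaving out 1 library gave 1 to 4 in WT, the lowest without the WT oocyte library of pool A well A5, and 2 to 4 in the knockout series, the highest without the 2c library of pool B well D4. From 2c to 8c and from MII to 8c the counts stayed within 1.5 times under all alternatives.

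Stage changes that turned are given as log2 fold changes. Apart from Yap1 and Lats1 in WT their main values had not passed the test, and the cause was not tested. With TMM scaling, from MII to 2c, Yap1 was 0.72 in WT and 1.23 in the knockout series, Nf2 1.65 and 1.33, Wwtr1 1.37 in the knockout series and Sav1 0.40 in WT. From 2c to 8c Nf2 was −0.79 in the knockout series, and from MII to 8c Sav1 was 0.18 in WT. In pool A alone Wwtr1 from MII to 2c was −0.38 in WT and Lats2 −2.55 in the knockout series. In pool B alone, from MII to 2c, Sav1 was 1.25 and Nf2 0.56 in WT and Tead2 −0.12 in the knockout series, and from MII to 8c in WT Lats1 was 0.60 and Sav1 2.21. With all libraries Nf2 from 2c to 8c was 0.044 in WT and Lats2 from MII to 2c −0.016 in the knockout series, where it was −0.11 with pool as a term. Other changes that had not passed also turned under at least 1 setting: from MII to 2c in WT Tead1 (up to 1.13), Tead2 (0.88) and Lats2 (0.16) and in the knockout series Tead1 (0.91); from 2c to 8c Lats1 (down to −0.78) and Sav1 (−0.22) in WT and Sav1 (−0.40) in the knockout series; from MII to 8c Nf2 (up to 0.57) in WT and Tead2 (0.34), Lats1 (0.40) and Nf2 (0.54) in the knockout series. Leaving out 1 library moved Nf2 from MII to 2c in WT between −0.18 and 0.40, Lats2 from MII to 2c in the knockout series between −1.97 and 0.48, and Nf2 from 2c to 8c in the knockout series between −0.13 and 0.19. Depth limits Sav1 and Lats1 at every stage, Lats2 and Amotl2 before 8c and Tead4 in oocytes, where few counts back each value.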
